A study of Mus musculus with 6 samples.

Results

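Prostaglandin synthesis was followed through 9 genes in mouse prostates: the cyclooxygenases Ptgs1 and Ptgs2, the terminal synthases Ptges, Ptges2, Ptges3, Ptgds and Ptgis, the inactivating enzyme Hpgd, and Akr1b7, an aldo-keto reductase. They were selected by symbol from the 18697 genes of the count table, and each of the 9 was found. The mice had experimental autoimmune prostatitis (EAP), a model in which an immune response to prostate antigens inflames the gland. The treated animals were given VUF11207, which activates the chemokine receptor CXCR7, at 5 mg per kg per day into the peritoneum for 14 days, and the controls received the vehicle DMSO in the same way, so both groups carried EAP. The labels used here give neither strain nor age, and no mouse without EAP was included. Each group held 3 RNA sequencing libraries of prostate tissue. VUF11207 replicates 1, 2 and 3 and DMSO replicates 2 and 3 were matched to their samples. The third DMSO column carried the group in its name but no replicate that could be matched, and it is called the unnumbered DMSO library.

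Prostaglandins are lipid signals made from arachidonic acid, which phospholipases release from membranes. A cyclooxygenase converts it to prostaglandin H2, and terminal synthases turn that into prostaglandin E2, D2, F2-alpha, prostacyclin or thromboxane. Ptgs1 is active in many tissues without stimulation, whereas Ptgs2 is the inducible form known from inflammation and from the immediate early response of stimulated cells. The male reproductive tract is a known exception, since in the rat the epithelium of the vas deferens carries Ptgs2 without inflammation. Akr1b7 was first described as the major androgen-dependent protein of the mouse vas deferens, and aldose reductases of its family can form prostaglandin F2-alpha. The question was whether Ptgs2 varied with the other prostaglandin genes, with Akr1b7, or with the inflamed samples. The genes were proposed after values of these libraries had been seen, so their levels and their likeness to one another are a description and carry no test.

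The start regions of Ptgs2 and Akr1b7, the members that moved together, are shown with that of Ptgs1, the other cyclooxygenase, which did not move with them. Each runs from 250 bases before to 50 bases after the RefSeq start in GRCm38.p6, the assembly that mm10 denotes, in the direction of the gene. All 3 lie on the plus strand, Ptgs2 at chr1:150099781-150100080, Akr1b7 at chr6:34412112-34412411 and Ptgs1 at chr2:36230176-36230475. Capitals mark matches to 8 short motifs.
Ptgs2: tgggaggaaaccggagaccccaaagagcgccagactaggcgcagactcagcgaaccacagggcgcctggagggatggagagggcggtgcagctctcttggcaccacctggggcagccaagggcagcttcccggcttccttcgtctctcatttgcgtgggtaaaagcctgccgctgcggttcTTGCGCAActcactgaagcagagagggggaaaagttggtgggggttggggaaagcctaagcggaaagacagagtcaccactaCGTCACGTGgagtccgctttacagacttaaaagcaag
Akr1b7: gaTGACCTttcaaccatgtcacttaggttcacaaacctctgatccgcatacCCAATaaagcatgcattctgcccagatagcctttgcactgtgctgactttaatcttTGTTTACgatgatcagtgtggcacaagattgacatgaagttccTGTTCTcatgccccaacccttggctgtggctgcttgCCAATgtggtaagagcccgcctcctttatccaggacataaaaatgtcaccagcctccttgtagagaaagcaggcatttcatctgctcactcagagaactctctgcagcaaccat
Ptgs1: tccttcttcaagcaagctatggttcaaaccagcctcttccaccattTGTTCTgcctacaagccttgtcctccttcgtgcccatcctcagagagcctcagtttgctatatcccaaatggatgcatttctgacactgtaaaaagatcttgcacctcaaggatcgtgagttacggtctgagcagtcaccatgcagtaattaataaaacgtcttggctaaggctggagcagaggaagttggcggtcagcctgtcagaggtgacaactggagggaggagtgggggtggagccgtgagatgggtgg
The motifs were chosen with these sequences in view and searched on both strands. They were TATAAA (the TATA box, in 13.6% of regions but in none of these 3) and the 7 named next. Ptgs2 held TTGCGCAA, a palindrome bound by C/EBP proteins and present in 0.183% of 32851 start regions of the same length. It also held CGTCA, the short form of a cyclic AMP response element (20.8% of regions), and CACGTG, an E-box (7.15%), which share bases 267 and 268 of its window. Akr1b7 held TGTTCT, one arm of the androgen and glucocorticoid receptor element (19.0%), and AGGTCA, a core motif of nuclear receptors (16.3%). It further held TGTTTAC, a forkhead motif (3.65%), and, at 2 places, the CCAAT box (37.4%). Ptgs1 held only TGTTCT of the 8. Ptgs2 and Akr1b7 thus had no motif of the 8 in common. A match describes letters in the window and is not a measured binding site. Start regions were matched by symbol for 8 of the 9 genes, all but Ptgis.

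Total counts per library ranged from 20308018 to 33368058. The tissue label was checked against a prostate gene: Hoxb13, a homeobox gene of the prostate, was at 182 to 805 CPM (counts scaled by the effective library size) over the 6 libraries. The libraries also held very different amounts of seminal vesicle transcripts. A list of 12 such genes took 30.1%, 6.40% and 8.04% of counts in VUF11207 replicates 1, 2 and 3, against 0.916%, 67.7% and 17.4% in the unnumbered DMSO library and DMSO replicates 2 and 3. Their Wilson 95% intervals reached at most 0.0166 percentage points to either side and covered counting error only. In DMSO replicate 2 the scaling factor (TMM) was 0.425, so CPM there depend most on the scaling. In bulk tissue, fewer cells of a type and less RNA per cell cannot be told apart.

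Ptgs2 lies on chromosome 1 from 150100031 to 150108227 in mm10 (GENCODE M21). It was at 445, 3.46 and 84.5 CPM in VUF11207 replicates 1, 2 and 3, against 4.77, 487 and 359 CPM in the unnumbered DMSO library and DMSO replicates 2 and 3. One library of each group was thus very low, and 1 with VUF11207 and 2 with DMSO were high, over a 141-fold span. Even the lowest libraries held 103 counts (VUF11207 replicate 2) and 129 counts (unnumbered DMSO library). Only 111 of 13753 genes tested (0.807%) had as wide a log2 range over the 6 libraries.

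Akr1b7 (chromosome 6, 34412334 to 34423142) was at 7148, 41.5 and 1149 CPM in VUF11207 replicates 1, 2 and 3, against 28.0, 5639 and 3134 CPM in the same order of DMSO libraries. Its 3 highest and 2 lowest libraries were those of Ptgs2, with a 255-fold span. That shared arrangement was also present in Ptges, and in 844 of all 13753 genes tested (6.14%). In the lowest library of Akr1b7, the unnumbered DMSO library, 758 counts remained.

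**Figure D1:**
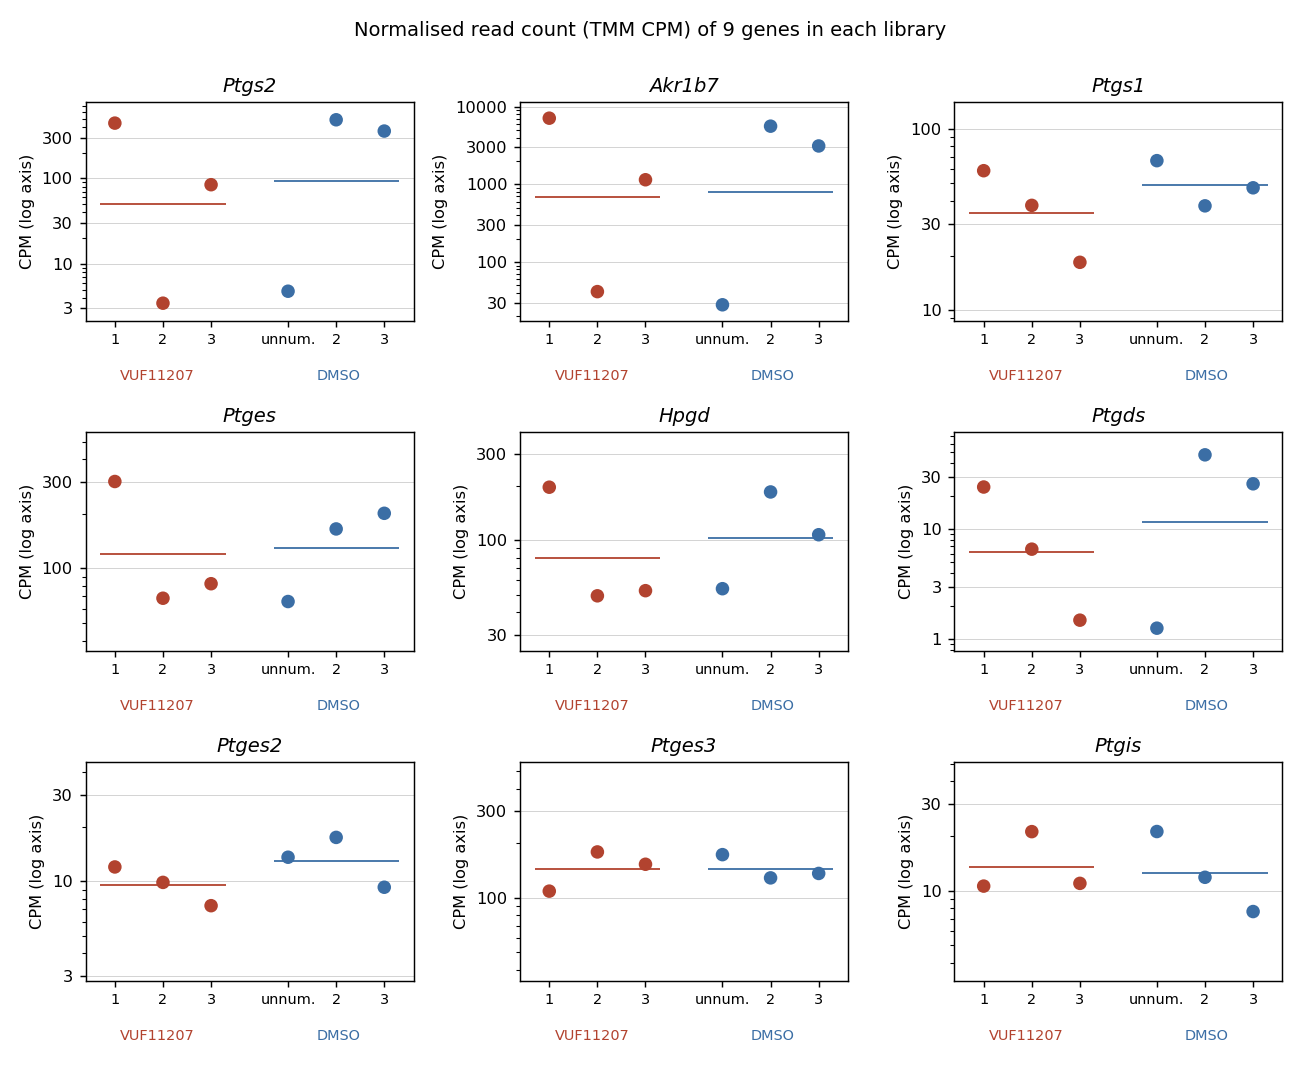
Normalised read count (TMM CPM, log axis, each panel with its own range) of the 9 genes in VUF11207 replicates 1 to 3 (left in each panel) and in the unnumbered DMSO library and DMSO replicates 2 and 3 (right). Points are libraries and lines are geometric means of 3. Ptgs2 and Akr1b7 were lowest in VUF11207 replicate 2 and the unnumbered DMSO library, and the groups overlapped in each panel.

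The ratio of 2 genes within a library does not depend on how libraries are scaled. Ptgs2 counts per Akr1b7 count were 0.0623, 0.0833 and 0.0736 in VUF11207 replicates 1, 2 and 3, against 0.170, 0.0864 and 0.115 in the DMSO libraries. The ratio spanned 2.73-fold, while Ptgs2 spanned 141-fold and Akr1b7 255-fold in CPM. The ratios of the groups did not overlap, but only by 0.0833 against 0.0864. With 3 libraries against 3 an exact two-sided permutation test cannot go below 0.1, so none was run.

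The ratio of Ptgs2 to Crisp1, which encodes a secreted protein of the epididymis and vas deferens, spanned 3.07-fold. The ratio of Ptgs2 to its paralogue Ptgs1 spanned 181-fold, to Ptges 58.4-fold and to Hpgd 47.8-fold. Against seminal vesicle genes it spanned 427-fold for Svs1 and 40.8-fold for Svs2. Against Lyz2, which encodes the lysozyme of macrophages and other myeloid cells, it spanned 492-fold, and against Nfkbia, an NF-kB target that encodes its inhibitor, 138-fold. These partner genes were chosen with values in view, and among them the ratios to Akr1b7 and Crisp1 varied least.

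**Figure D2:**
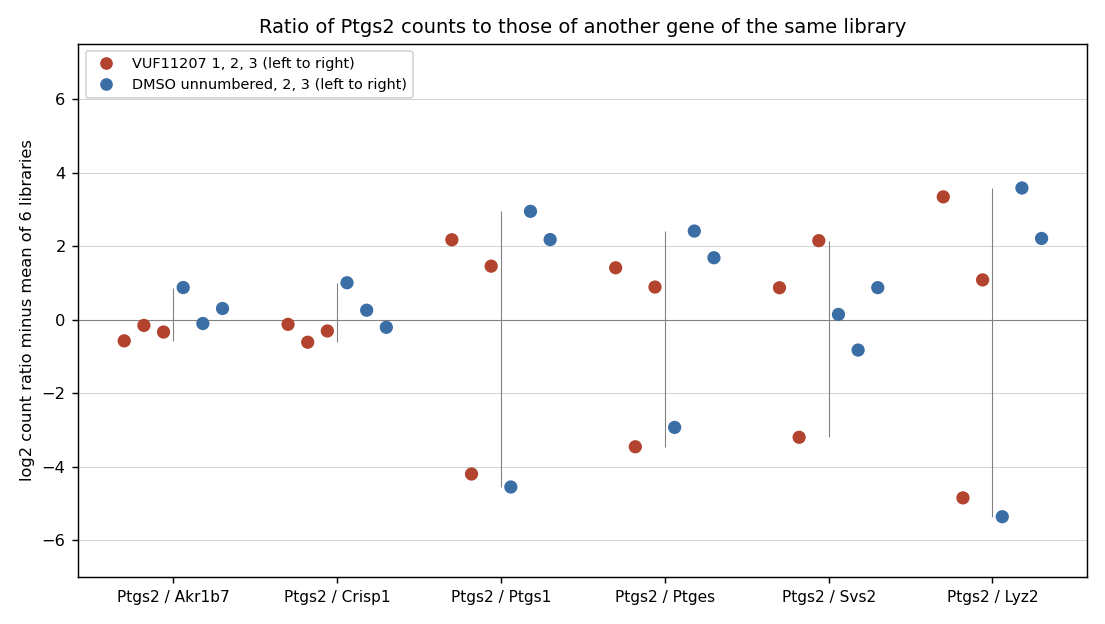
Ratio of Ptgs2 counts to the counts of another gene of the same library, as log2 after subtracting the mean of the 6 libraries. Points are libraries, VUF11207 (red) left of DMSO (blue), and the vertical lines show the whole range. The ratios to Akr1b7 and Crisp1 spanned 2.73-fold and 3.07-fold, and that to Ptgs1 181-fold.

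Likeness was measured for all genes as the root mean square difference of log2 CPM from Ptgs2 after each gene's mean over the 6 libraries was subtracted. Akr1b7 was the nearest of 13752 other genes, at 0.48 log2 units. It ranked 16 without VUF11207 replicate 2 and 9 without DMSO replicate 2. The nearest genes outside the 9, by the rule for named genes, were Crisp1 (0.51), Pax8 (0.55), Eddm3b (0.56), Calml3 (0.59) and Serpina1f (0.73). Pax8 encodes a transcription factor of the Wolffian duct, from which the epididymis, vas deferens and seminal vesicle arise, and of kidney and thyroid. Eddm3b encodes an epididymal secretory protein, Serpina1f a serpin of the male reproductive tract and Calml3 a calmodulin-like protein of epithelia. For Akr1b7 the nearest gene was Crisp1 (0.37), and Ptgs2 came second, before Serpina1f (0.63) and the beta-defensin Defb30 (0.70).

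Crisp1 was at 756, 8.22 and 163 CPM in VUF11207 replicates 1, 2 and 3, against 3.70, 634 and 645 CPM in the DMSO libraries. Serpina1f was at 294, 0.436 and 42.6 CPM with VUF11207, against 0.999, 191 and 138 CPM with DMSO. Pax8 was at 19.9, 0.168 and 2.40 CPM with VUF11207, against 0.296, 13.5 and 14.9 CPM with DMSO. All 3 were lowest in the same pair of libraries as Ptgs2. Pax8, Eddm3b and Calml3 had at most 8 counts in each of those 2 libraries, so their spans are limited by depth. A list of 20 epididymal genes had 16 in the table and 4 tested, with levels (mean centred log2 CPM) of 1.84, -1.87 and -0.13 with VUF11207 and -2.18, 1.25 and 1.08 with DMSO. Crisp1 made up most of the summed CPM of that list, and the epididymal genes Lcn8, Cst8, Spag11a and Spag11b had 0 counts in all libraries. Adam28, another tested gene of the list, did not follow Ptgs2. It was at 1.49, 2.05 and 3.21 CPM with VUF11207, against 2.85, 0.282 and 1.29 CPM with DMSO. It was lowest, at 4 counts, in DMSO replicate 2, where Ptgs2 was highest.

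The inflamed samples were read from immune lists. The T cell list (9 genes tested) had levels of -0.46, 1.01 and -0.80 in VUF11207 replicates 1, 2 and 3, against 0.89, -0.48 and -0.15 in the DMSO libraries. Its summed CPM, 7.44 to 26.4 with VUF11207 and 11.7 to 36.1 with DMSO, was highest in DMSO replicate 2 instead, where Skap1, an adaptor of T cells, gave 30.4 CPM. Skap1 was at most at 4.87 CPM in the other libraries. The macrophage and monocyte list (16 genes, none at 0 throughout) had levels of -0.48, 0.44 and -0.71 with VUF11207, against 0.74, -0.28 and 0.29 with DMSO. Its summed CPM was 149 to 321 with VUF11207 and 185 to 466 with DMSO. By mean level, the 2 libraries highest for both lists were thus those in which Ptgs2 was lowest. The same 2 libraries were also highest for the fibroblast list (0.73 in VUF11207 replicate 2 and 0.37 in the unnumbered DMSO library). The smooth muscle list was highest there too, at 1.22 and 0.73 in the same order. The part of tissue content in these immune levels was not tested. Lyz2 was at 48.1, 109 and 43.8 CPM with VUF11207, against 215, 44.6 and 85.2 CPM with DMSO. Cd3e, a chain of the T cell receptor complex, was low throughout, at 0.473, 1.41 and 0.372 CPM with VUF11207, against 1.59, 0.564 and 0.582 CPM with DMSO.

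Lists of genes known to be induced together with Ptgs2 were read in the same way, as means over their genes. The inflammatory cytokine and NF-kB list (13 tested of 20) had levels of -0.40, 0.40 and -0.15 with VUF11207 and 0.42, -0.28 and 0.01 with DMSO. The immediate early list (11 tested of 14), which holds Fos, Jun and Egr1, had levels of 0.04, -0.13 and -0.40 with VUF11207 and 0.17, 0.09 and 0.23 with DMSO. By these means neither list was low in both libraries with little Ptgs2. The most abundant immediate early genes, Junb and Ier2, were nevertheless lowest in that pair of libraries, with spans of 1.92-fold and 1.94-fold. Il1b, an inflammatory cytokine that did not pass the filter on low counts, was at most at 1.30 CPM, in the unnumbered DMSO library, where Ptgs2 was at 4.77 CPM. The most abundant genes of the cytokine and NF-kB list, Sod2 and Nfkbia, were instead highest in DMSO replicate 2, where Ptgs2 was highest. They reached 116 and 74.7 CPM there, with spans of 1.41-fold and 1.93-fold over the libraries. Neither was lowest in a library of the pair with little Ptgs2.

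The neutrophil list (6 tested of 14) ran partly with Ptgs2. Its mean levels were 0.02, -0.10 and -1.15 with VUF11207, against 0.09, 0.38 and 0.77 with DMSO. By that measure VUF11207 replicate 1, with much Ptgs2, stood below the unnumbered DMSO library, with little. Its summed CPM was 61.7, 10.9 and 13.8 in VUF11207 replicates 1, 2 and 3, against 18.4, 23.04 and 57.7 in the DMSO libraries, and was highest in 2 libraries with much Ptgs2. Ltf, which encodes lactoferrin, a protein of neutrophil granules and of glandular secretions, gave most of the sum in those 2 libraries. It was at 51.5, 3.69 and 11.4 CPM with VUF11207, against 2.22, 9.86 and 49.2 CPM with DMSO, and its 2 lowest libraries were those of Ptgs2. The neutrophil marker S100a8 was at most at 0.436 CPM with VUF11207 and at 3.997, 3.10 and 1.13 CPM with DMSO, and Ly6g had 0 counts throughout. S100a8 had at most 13 counts in a VUF11207 library, with an edgeR unadjusted p of 0.0036 and an adjusted p of 0.9999. The groups did not overlap for S100a8, nor for 5.57% of all genes tested. The part of neutrophils in the level of Ptgs2 was not tested.

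Other tissues in the specimen moved with Ptgs2 in part. Svs2 was at 100464, 13090 and 7852 CPM with VUF11207, against 1782, 356183 and 80928 CPM with DMSO. Svs1 was at 18968, 51.7 and 1128 CPM with VUF11207, against 452, 115364 and 199 CPM with DMSO. DMSO replicate 3 thus held little Svs1 but 359 CPM of Ptgs2. Other seminal vesicle genes ran closer to Ptgs2. Svs5 was at 69250, 6742 and 11981 CPM with VUF11207, against 1566, 378396 and 32762 CPM with DMSO. Its 3 highest and 2 lowest libraries were those of Ptgs2. Pate4 was at 15997, 4520 and 2712 CPM with VUF11207, against 534, 68376 and 15666 CPM with DMSO, with the same 3 highest libraries. The skeletal muscle list (12 of 12 tested), at a summed 629 to 6048 CPM with VUF11207 and 420 to 5722 CPM with DMSO, had levels that were high in VUF11207 replicate 1 (4.22) and DMSO replicate 3 (4.11) but low in DMSO replicate 2 (-2.13), where Ptgs2 was highest. The part of these tissues in the level of Ptgs2 was not tested.

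**Figure D3:**
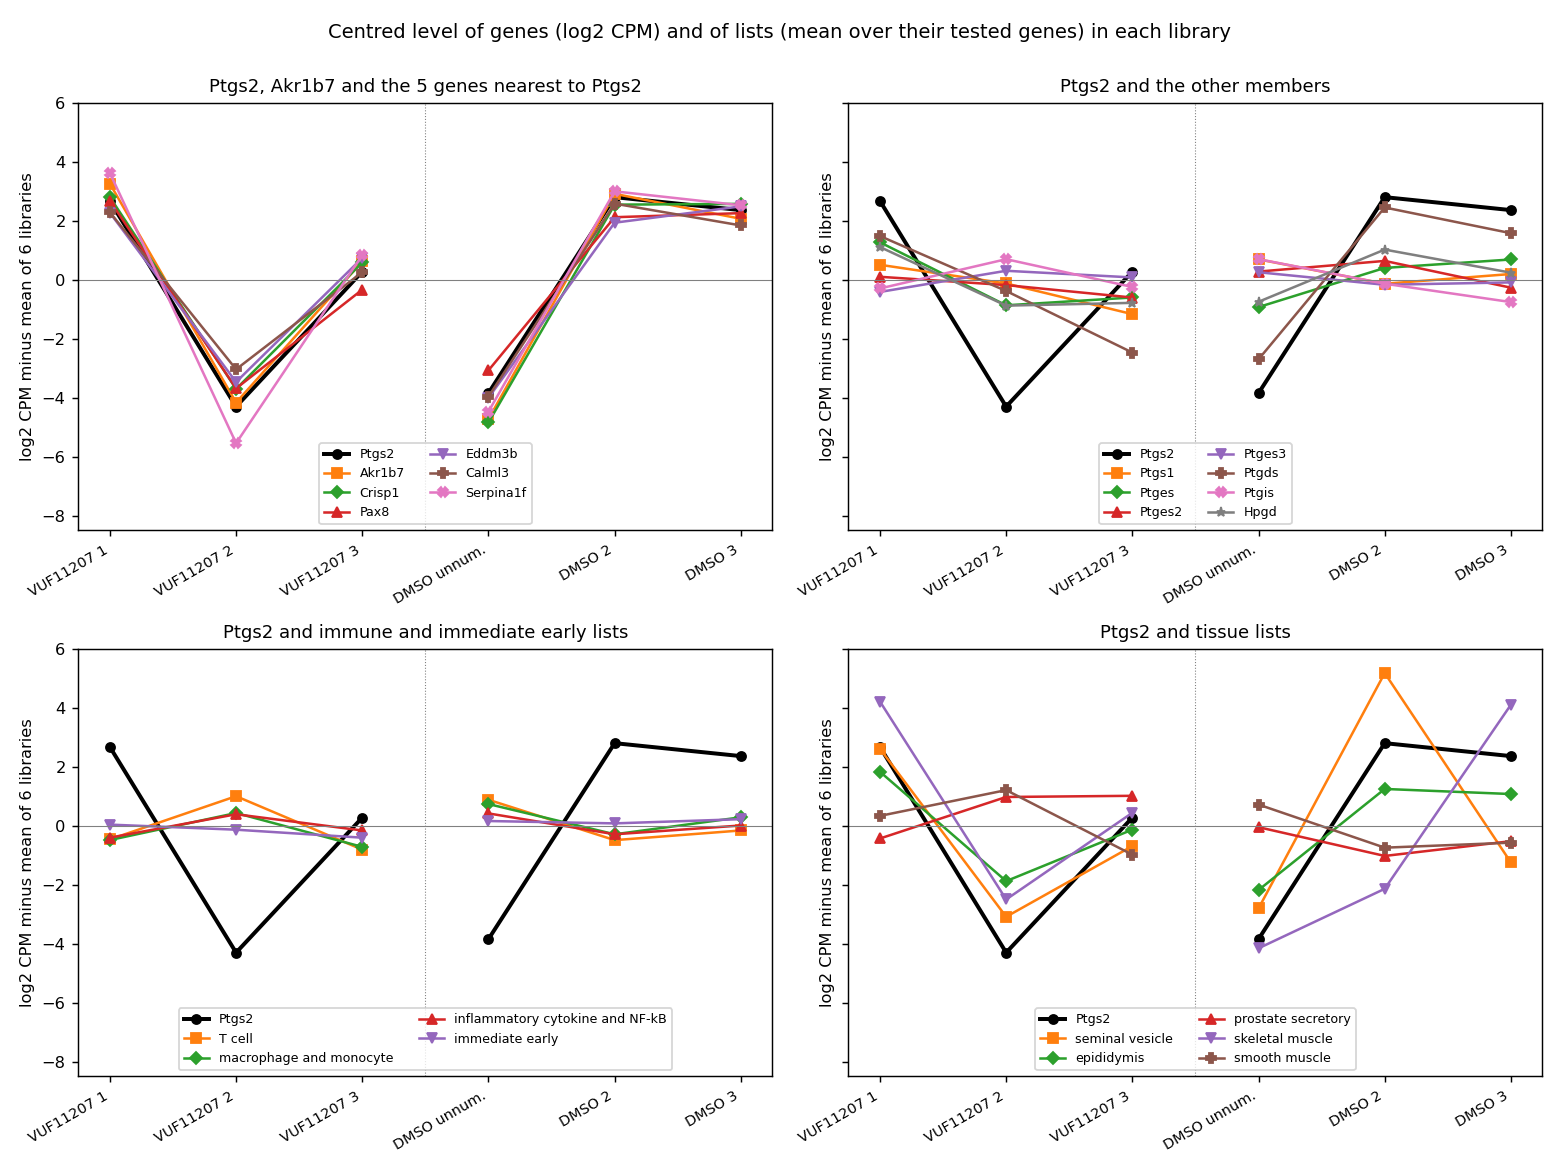
Level in each library minus the mean of the 6 libraries, on the log2 CPM scale, with VUF11207 left of DMSO; libraries have no order and the lines only guide the eye. Ptgs2 (black) runs with Akr1b7 and its 5 nearest genes (top left) and more widely than the other members (top right). It does not run with the mean levels of the T cell, macrophage, NF-kB and immediate early lists (bottom left). The neutrophil list, which ran partly with Ptgs2, is not drawn. Among tissue lists (bottom right), the epididymis list (4 genes tested) shares its 2 lowest libraries with Ptgs2. Seminal vesicle and skeletal muscle part from Ptgs2 in different libraries.

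The other members divided by how far they varied. Ptges, the inducible microsomal prostaglandin E synthase that acts with Ptgs2, was at 302, 68.5 and 82.3 CPM in VUF11207 replicates 1, 2 and 3, against 65.6, 165 and 201 CPM in the DMSO libraries. Hpgd, which inactivates prostaglandins by oxidation, was at 196, 49.3 and 52.7 CPM with VUF11207, against 54.0, 185 and 107 CPM with DMSO. Ptgds, the lipocalin-type prostaglandin D synthase, was at 24.1, 6.58 and 1.49 CPM with VUF11207, against 1.26, 47.3 and 25.8 CPM with DMSO. The same 3 libraries, VUF11207 replicate 1 and DMSO replicates 2 and 3, were highest for Ptges, Hpgd and Ptgds as for Ptgs2. Their spans were 4.59-fold for Ptges, 3.97-fold for Hpgd and 37.6-fold for Ptgds, against 141-fold for Ptgs2.

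The remaining 4 members did not share this arrangement. Ptgs1 was at 58.8, 37.8 and 18.4 CPM with VUF11207, against 66.8, 37.6 and 47.3 CPM with DMSO, and was highest in the unnumbered DMSO library. Ptgis, the prostacyclin synthase of vessels and smooth muscle, was at 10.6, 21.1 and 10.96 CPM with VUF11207, against 21.2, 11.8 and 7.66 CPM with DMSO. Its 2 highest libraries were the 2 lowest of Ptgs2 and also the 2 with the highest smooth muscle levels (1.22 in VUF11207 replicate 2 and 0.73 in the unnumbered DMSO library). Ptges2, a membrane-associated E synthase, and Ptges3, the cytosolic E synthase that is also the HSP90 co-chaperone p23, spanned 2.38-fold and 1.65-fold over all libraries.

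Levels of different genes were compared per kilobase of exon in the GENCODE annotation. On this scale Akr1b7 was first of the 9 in VUF11207 replicates 1 and 3 and in DMSO replicates 2 and 3, at 5580, 897, 4402 and 2446 CPM per kb. Ptgs2 stood above Ptgs1 in the same 4 libraries, for example at 97.2 against 15.1 CPM per kb in VUF11207 replicate 1 and at 106 against 9.69 in DMSO replicate 2. In the other pair the order was turned round, with Ptgs2 at 0.755 and Ptgs1 at 9.74 CPM per kb in VUF11207 replicate 2, and with 1.04 and 17.2 in the unnumbered DMSO library. There Ptges3 was first of the 9, at 80.9 and 78.2 CPM per kb. Which cyclooxygenase transcript prevailed therefore differed between libraries of the same treatment.

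VUF11207 was then compared with DMSO for each member, within a fit over all genes. None of the 9 passed an adjusted p of 0.05 in edgeR's quasi-likelihood test, beside 0 of 13753 genes tested (0%), and DESeq2 and limma voom called none of the 9 either. Before adjustment, the edgeR p was under 0.05 for 0 of the 9, beside 1.43% of all genes. The groups overlapped in CPM for all 9 members, and did not overlap for 5.57% of genes tested (3.05% higher and 2.52% lower with VUF11207). Of the 9, 3 had a positive and 6 a negative log2 fold change with a median of -0.21, and 44.7% of all genes were positive with a median of -0.04.

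Ptgs2 averaged 178 ± 235 CPM with VUF11207 and 284 ± 250 CPM with DMSO (SD, n = 3 each). Its log2 fold change was -0.67 ± 1.74 (SE), with a 95% interval from -4.86 to 3.51 and an edgeR adjusted p of 0.9999. Without VUF11207 replicate 1 it was -2.67, without DMSO replicate 2 it was -0.03, and without both it was -2.04. Akr1b7 averaged 2780 ± 3824 CPM with VUF11207 and 2933 ± 2811 CPM with DMSO (SD, n = 3 each). The log2 fold change of Akr1b7 was -0.08 with an interval from -4.57 to 4.42. Its sign depended on single libraries, at -2.28 without VUF11207 replicate 1 and 0.82 without DMSO replicate 2 (-1.40 without both), and on scaling, at 0.45 with library totals alone. These intervals leave room for changes of many fold in either direction.

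Intervals were narrower for the members that varied little. Ptges3 had a log2 fold change of 0.01 (95% interval -0.61 to 0.63), Ptges2 of -0.46 (-1.22 to 0.29), Ptgs1 of -0.40 (-1.44 to 0.64) and Ptgis of 0.07 (-1.01 to 1.15). Ptges was at 0.07 (-1.53 to 1.66), Hpgd at -0.21 (-1.81 to 1.38) and Ptgds at -1.20 (-4.34 to 1.93). With 1 library left out, Ptges ran from -0.91 to 0.42, Hpgd from -1.16 to 0.31, Ptgis from -0.33 to 0.55 and Ptges3 from -0.15 to 0.22, so their signs are not fixed by these data. Ptgds ran from -2.61 without VUF11207 replicate 1 to -0.33 without DMSO replicate 2, and Ptgs1 from -0.82 without VUF11207 replicate 1 to -0.06 without VUF11207 replicate 3. The sign of Hpgd also turned with library totals alone (0.18).

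**Figure D4:**
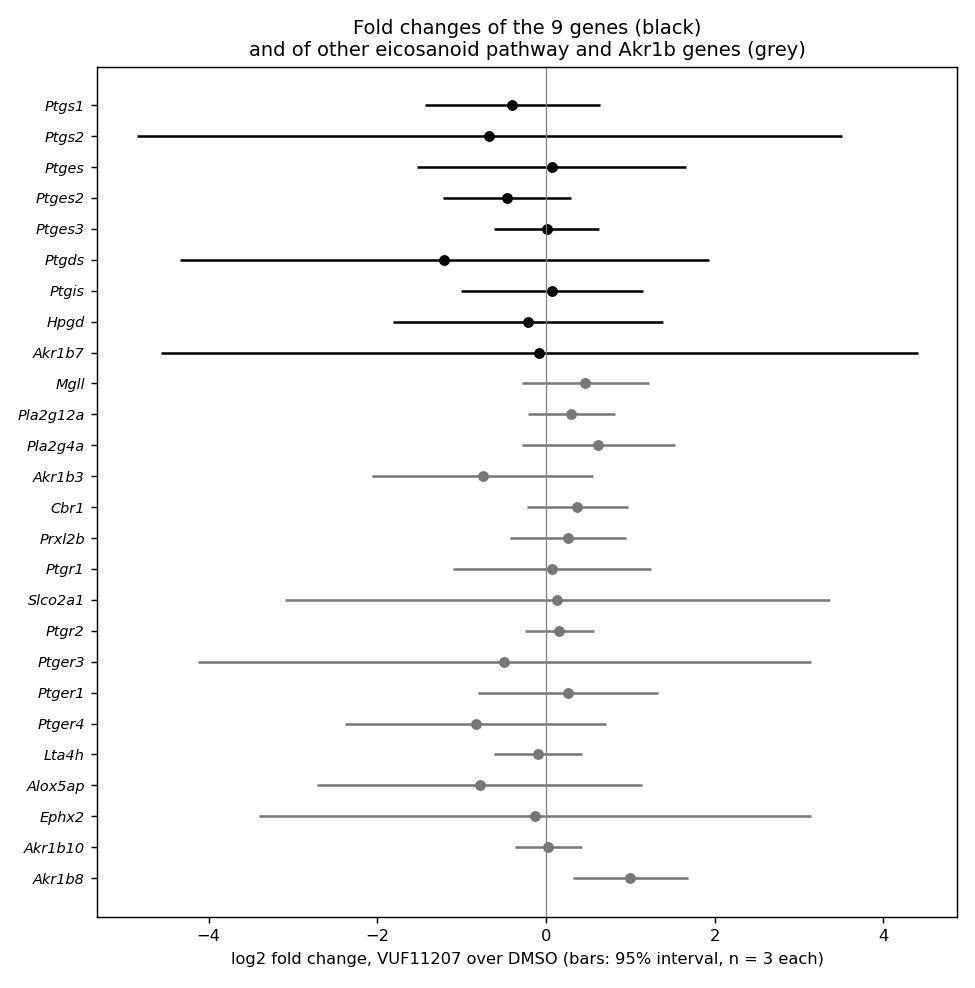
Log2 fold change of VUF11207 over DMSO (points) with 95% intervals (bars, 3 libraries each) from edgeR for the 9 members (black) and for other named eicosanoid pathway and Akr1b genes (grey). The intervals of all 9 members include 0, and those of Ptgs2 and Akr1b7 run from -4.86 to 3.51 and from -4.57 to 4.42.

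The rest of the pathway was read from 6 lists of 55 further genes, of which 52 were in the table and 33 passed the filter on low counts. None of the 33 passed the edgeR threshold in either direction, 19 had a positive and 14 a negative log2 fold change, and the median was 0.07, against -0.04 over all genes. Among the 9 tested genes of arachidonate release, 6 were positive. Pla2g4a, the cytosolic phospholipase that feeds cyclooxygenases, was at 27.9, 15.5 and 23.6 CPM with VUF11207, against 7.96, 18.5 and 17.1 CPM with DMSO, a log2 fold change of 0.62 ± 0.38 (SE). It was at 0.33 without the unnumbered DMSO library. Mgll, a lipase that frees arachidonate from an endocannabinoid, had 0.47 ± 0.32 (SE), and Pla2g12a, a secreted phospholipase, 0.30 ± 0.22 (SE). Mgll was at 0.13 without VUF11207 replicate 1, and Pla2g12a at 0.11 without VUF11207 replicate 3.

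Of the 4 tested genes of transport and inactivation, Slco2a1, the prostaglandin transporter that takes prostaglandins into cells, followed Ptgs2. It was at 208, 4.46 and 28.8 CPM with VUF11207, against 9.92, 114 and 95.7 CPM with DMSO. As for Ptgs2, VUF11207 replicate 2 and the unnumbered DMSO library were its 2 lowest. Ephx2, the soluble epoxide hydrolase that acts on epoxides of arachidonate, was at 30.5, 2.01 and 3.75 CPM with VUF11207, against 0.555, 22.3 and 17.0 CPM with DMSO, with the same 2 lowest libraries. Ptgr1, a reductase of the inactivation route, spanned 3.76-fold and Ptgr2, another such reductase, 1.35-fold.

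Of the 9 receptors, 4 passed the filter on low counts. Ptger3, a receptor of prostaglandin E2, was at 1.25, 26.5 and 4.53 CPM with VUF11207, against 41.7, 2.54 and 1.196 CPM with DMSO. Its 2 highest libraries were the 2 lowest of Ptgs2, as for Ptgis. Ptger1 was at 1.63 to 3.69 CPM and Ptger4 at 0.541 to 2.04 CPM over the 6 libraries. Of the lipoxygenase and leukotriene list (9 tested of 15), Lta4h, the leukotriene A4 hydrolase, spanned 1.54-fold, and Alox5ap, which presents arachidonate to 5-lipoxygenase, was at 37.4, 15.4 and 7.27 CPM with VUF11207, against 11.55, 22.5 and 69.4 CPM with DMSO.

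Of the remaining terminal synthases, Cbr1, a carbonyl reductase that converts prostaglandin E2, was at 99.3, 94.4 and 140 CPM with VUF11207, against 67.7, 89.1 and 101 CPM with DMSO, and Prxl2b, a prostaglandin F synthase, spanned 1.98-fold. Within the Akr1b family, whose genes lie side by side on chromosome 6, Akr1b3, the aldose reductase, was at 195, 326 and 142 CPM with VUF11207, against 460, 519 and 138 CPM with DMSO. Akr1b10 was at 40.6 to 48.5 CPM over the 6 libraries, beside the 255-fold span of Akr1b7. These genes resemble one another, and how reads matching several genes were counted is not given, so their values are uncertain. Akr1b8, chosen after its values were seen, was at 9.30, 11.1 and 14.0 CPM with VUF11207, against 4.48, 5.99 and 6.75 CPM with DMSO, with no overlap. Its log2 fold change was 1.001 ± 0.29 (SE) with an edgeR unadjusted p of 0.0107 and an adjusted p of 0.9999.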

How the data were processed

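The deposited table holds raw read counts per gene symbol for 6 libraries. The files of 5 single libraries hold the same counts. Per the submitters' processing notes, the authors used fastp, HISAT2, HTSeq and mm10, with versions, annotation and strand setting not given in the sources used here. Overlapping antisense genes could therefore add reads.

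Genes were filtered with filterByExpr, which left 13753, and scaled by TMM. They were tested with edgeR 4.0.16 (quasi-likelihood, robust, two-sided, Benjamini-Hochberg over all genes, threshold 0.05). The fit was tried on simulated data first. Recovery of planted changes was required there only at a spread between libraries below that of these data. It therefore does not show how many real changes would be found here. The SE came from the fold change and its F statistic. log2 CPM used a prior count of 2. Start regions came from RefSeq (GRCm38.p6), and positions and exon lengths from GENCODE M21, which may differ from the annotation used for counting. Labels do not say that libraries came from separate mice, so the p-values reflect variation among these libraries, which may be technical.

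The members and lists were chosen with earlier results of these data known. Named genes were the 9 members, the 5 nearest to Ptgs2 and to Akr1b7 (average log2 CPM of at least 1, range of at least 2, no Gm, Rik or LOC names), the 3 most abundant of each pathway list, and up to 2 of each marker list with a few fixed markers. Hoxb13, Svs1 and Akr1b8 were added after values were seen. Alternatives were DESeq2 1.42.0, limma voom (limma 3.58.1), 2 other scalings, no filter, replicate blocks and leaving out libraries, in R 4.3.3 and Python 3.11.15.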

Additional observations from a re-analysis of the deposited data

How the results depend on the processing

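No alternative called any of the 9 members or the 33 other pathway genes. Over all genes, DESeq2 called 4, library totals alone 3, and the other settings 0, including each library left out. With library totals alone, all genes had a median of 0.14 (log2), against -0.04 with TMM. Of 208 single log2 fold changes recomputed without leaving out 1 library, 187 kept their direction and 21 turned; the cause was not tested. With limma voom, Ptges was at -0.13, Ptges3 at -0.0014, Slco2a1 at -0.65, Ptger3 at 0.0312 and Ephx2 at 0.24. With library totals alone, Hpgd was at 0.18, Akr1b7 at 0.45, Lta4h at 0.0397 and Ephx2 at 0.27. Without both VUF11207 replicate 1 and DMSO replicate 2, Ptges was at -0.81, Slco2a1 at -1.65 and, with direction kept, Ptgs2 at -2.04, Akr1b7 at -1.40 and Alox5ap at -1.83.

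Replicate numbers were shared by 2 pairs, and with them as a block Ptges was at -1.27, Ptgr1 at -0.51, Slco2a1 at -3.17, Ptger3 at 2.67, Ptger1 at -0.0922 and Lta4h at 0.20. In that fit of replicates 2 and 3 only, Ptgs2 was at -4.56 and Akr1b7 at -4.25. Ptgds was at -3.44 (edgeR unadjusted p 0.00019, adjusted p 0.21) and Hpgd at -1.45 (edgeR unadjusted p 0.0072, adjusted p 0.46). Ptges had an edgeR unadjusted p of 0.0084 and an adjusted p of 0.48. The fit called 0 genes. An unadjusted edgeR p under 0.05 was found for 3 of 9 members, 4 of 33 other pathway genes and 834 of 13770 genes. With the number in the column name as a replicate block over 3 pairs, added after seeing the data, 0 genes were called, and Ptges was at -0.24, Ptges3 at -0.0062, Slco2a1 at -1.31 and Ptger3 at 0.96, beside Ptgs2 at -1.94 and Akr1b7 at -1.35. The deviations of same-numbered libraries correlated at -0.59, -0.33 and 0.0525. Labels do not say whether these libraries shared more than a number, and this was not tested.

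With 1 library left out, 29 of 156 single values turned. The ranges were -0.91 to 0.42 for Ptges, -0.15 to 0.22 for Ptges3, -0.33 to 0.55 for Ptgis, -1.16 to 0.31 for Hpgd, -2.28 to 0.82 for Akr1b7, -0.29 to 0.64 for Ptgr1, -2.12 to 0.69 for Slco2a1, -2.38 to 2.55 for Ptger3, -0.17 to 0.0977 for Lta4h, -1.59 to 0.24 for Alox5ap, -2.19 to 0.46 for Ephx2 and -0.037 to 0.0927 for Akr1b10. Akr1b7 ranked 1 by likeness to Ptgs2 with library totals alone, 3 with a prior count of 0.5, and 1 to 16 of 13752 with 1 library left out (16 without VUF11207 replicate 2, 9 without DMSO replicate 2). Their root mean square difference ran from 0.29 to 0.52. Depth limits the genes with few counts in VUF11207 replicate 2 and the unnumbered DMSO library.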

Other observations

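Hdc, which encodes the histamine-forming enzyme and is one of 2 tested genes of the mast cell list, shared its 2 highest and 2 lowest libraries with Ptger3. It was at 3.41, 36.1 and 4.70 CPM in VUF11207 replicates 1, 2 and 3, against 50.3, 7.12 and 2.004 CPM in the unnumbered DMSO library and DMSO replicates 2 and 3. Its 2 highest libraries were thus the 2 with least Ptgs2 and Akr1b7. Kit, the other tested gene of that list, went the other way. It was at 7.94, 4.40 and 2.27 CPM with VUF11207, against 2.92, 1.41 and 9.08 CPM with DMSO. Its highest libraries, DMSO replicate 3 and VUF11207 replicate 1, were the lowest of Hdc. Of the 9 genes of the mast cell list, 8 were in the table, and Ms4a2, a chain of the mast cell IgE receptor, had 0 counts in all libraries. Tgm4, the transglutaminase of the anterior prostate secretion, was at 624, 8518 and 1646 CPM with VUF11207, against 16902, 828 and 955 CPM with DMSO. Like Hdc, it was highest in the pair of libraries with least Ptgs2. Sbp, the spermine-binding protein and the most abundant gene of the same prostate list, differed from it, at 66225, 64894 and 143193 CPM with VUF11207, against 3710, 50372 and 66858 CPM with DMSO, and was lowest in the unnumbered DMSO library.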
